A study of Homo sapiens with 2 samples.

Results

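The genes described here are 8 members of the MYC and MYB families of transcription factors and their partners: MYC, MYCN, MYCL1, MAX, MXI1, MYB, MYBL1 and MYBL2. Their probes were found by gene symbol and distance to a transcription start in the array's own annotation. Of the 8 genes, 7 had probes, out of 17280 genes annotated on both arrays, and MYBL1 (A-MYB) had 0 probes and is not described further. The 7 genes held 280 probes and 252 windows, and none of these probes was shared with another gene.

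The data are a ChIP-on-chip experiment in non-treated Meg-01 cells, a human megakaryoblastic leukemia line, with formaldehyde-fixed chromatin. One arm was DNA recovered with GATA1 (C-20), an antibody to the C-terminal end of GATA1 (the IP), and the other was a normal goat IgG pull-down from the same chromatin, which gives the background. IP DNA carried Cy5 and IgG DNA carried Cy3, and both were hybridized together to the 2 promoter arrays of a set, named chIP1 and chIP2. These arrays held different probes, so each probe was measured in 1 hybridization of 1 cell line, without a replicate or a dye swap, and no p-value could be given. The assay measured DNA and not expression, so the identity of the cells was not checked against marker genes.

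MYC, MYCN and MYCL1 (L-MYC; MYCL in current nomenclature) are basic helix-loop-helix factors that bind the E-box as heterodimers with MAX and activate genes of growth and proliferation. MXI1 competes for MAX and forms repressing dimers. MYB keeps hematopoietic progenitors in an immature, dividing state, and MYBL2 (B-MYB) drives genes of the late cell cycle in most dividing cells. GATA1 is the master regulator of red cells and megakaryocytes, and the maturation of these lineages is accompanied by loss of MYC and MYB activity.

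The promoter sequences of the members that are described most closely are shown so that the letters can be read beside the probe values. A promoter from the RefSeq table (GRCh38.p14) was read for 6 of the 8 genes, with 9 transcription starts. Promoters of MYC and MYBL1 were left out of the search, so nothing is said about their letters. Each sequence below is the 250 bases before a start, 5′ to 3′ on the gene's strand. Capitals mark matches, on either strand, to the GATA motif (the letters AGATAA or AGATAG, and the letters TGATAA or TGATAG), the E-box CACGTG or the MYB motif TAACNG. The sequences come from the + strand of chr20:43666864-43667113 for MYBL2, chr6:135181058-135181307 for MYB, chr2:15940300-15940549 for MYCN and chr10:110209981-110210230 for the second MXI1 start.
MYBL2: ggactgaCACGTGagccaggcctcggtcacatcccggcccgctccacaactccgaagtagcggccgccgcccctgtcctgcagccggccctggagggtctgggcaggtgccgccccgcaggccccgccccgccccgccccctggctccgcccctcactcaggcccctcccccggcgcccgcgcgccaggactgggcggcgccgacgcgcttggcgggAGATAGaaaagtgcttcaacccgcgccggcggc
MYB: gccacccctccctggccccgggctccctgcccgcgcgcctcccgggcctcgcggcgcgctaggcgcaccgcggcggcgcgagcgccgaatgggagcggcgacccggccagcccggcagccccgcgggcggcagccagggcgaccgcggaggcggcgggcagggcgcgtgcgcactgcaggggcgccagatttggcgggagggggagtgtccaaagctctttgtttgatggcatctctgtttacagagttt
MYCN: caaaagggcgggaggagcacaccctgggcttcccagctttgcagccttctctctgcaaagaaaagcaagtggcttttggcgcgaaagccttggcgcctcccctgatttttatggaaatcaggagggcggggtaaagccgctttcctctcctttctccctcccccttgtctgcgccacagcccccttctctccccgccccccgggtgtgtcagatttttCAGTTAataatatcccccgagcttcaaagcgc
MXI1: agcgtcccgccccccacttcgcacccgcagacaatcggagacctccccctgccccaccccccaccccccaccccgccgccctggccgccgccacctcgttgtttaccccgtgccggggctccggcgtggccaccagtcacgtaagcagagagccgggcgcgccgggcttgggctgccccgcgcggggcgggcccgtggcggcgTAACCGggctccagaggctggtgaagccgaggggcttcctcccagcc

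MYBL2 was the only one of the 9 starts with a GATA match (AGATAG at positions -33 to -28, counted back from the start) and the only one with an E-box (at positions -243 to -238). Of 35116 promoters in the table, 22.3% held a GATA match and 6.34% an E-box in these 250 bases. MYB motif letters stood before 3 of the 9 starts, that of MYCN (CAGTTA at positions -32 to -27) and 2 of MXI1, against 17.6% of all promoters. The MYB promoter held none of these letters. These matches are descriptions of the letters in 1 window, and the positions on the arrays are in a genome build that is not given in the sources used here.

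The arrays read these promoters sparsely. In the 250 bp before the MYBL2 start there was 1 probe, at -216 bp, with a log2 ratio of 0.57. The MYB start had 1 probe there, at -25 bp, with 1.21. MYCN had 3, with 0.41, 0.47 and 0.30 at -241, -134 and -30 bp. The MXI1 start shown had 1, with -0.09 at -129 bp. By these counts the MYBL2 probe at -216 bp stood away from the GATA letters at -33 to -28. The probe nearest to the letters by distance, 34 bp inside the gene, was dim and read 0.16. Probe distances are from the array's own starts and letter positions from the RefSeq starts. Whether these starts coincide was not checked, so the placement of probes beside letters is approximate. The highest probe in this stretch was in MYC, with 2.04 at -195 bp, but the letters of its promoter were not read.

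Each probe value is the log2 of the processed IP signal over the processed IgG signal, with the array's median at 0, so that 1 is 2-fold toward the IP and -1 is 2-fold toward the IgG. Values were averaged over windows of 3 adjacent probes, with each neighbor no more than 1000 bp from the middle one. A window at 1 or more was called IP side, and a window at -1 or less was called IgG side. The level of a gene is its highest window. Distances in bp are from the transcription start, negative upstream and positive inside the gene.

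All 7 genes had an IP-side window, while 57.1% of the 17054 genes with windows had one. The median of the highest windows was 1.37 for the 7 genes and 1.09 for all genes. MAX, MXI1 and MYB also had an IgG-side window, and MYC, MYCN, MYCL1 and MYBL2 did not. Over all genes, 52.9% had an IgG-side window. By window, 28 of 252 (11.1%) were on the IP side, against 7.62% of all 415409 windows. On the IgG side were 8 (3.17%), against 9.65% of all windows. Windows of a gene overlap and share probes, so these counts are not of independent readings.

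By single probes the lean was smaller. Of the 280 probes, 39 (13.9%) were at 1 or more, against 11.8% of all probes, and 22 (7.86%) were at -1 or less, against 14.4%. Probes above 0 numbered 182 (65.0%), where centering puts as many of all probes above 0 as below. Windows with all 3 probes at 1 or more were rare: 3 of 252 member windows (1.19%), one each in MYC, MYCN and MYB, against 1.66% of all windows. With all 3 probes at -1 or less there were 2 (0.794%), both in MYB, against 3.24%. The members thus had a smaller share of IgG-side readings than the arrays as a whole. Their IP-side share by this stricter count rested on 3 windows and was not far from that of all windows.

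The number of windows in a gene matters for its highest window. MXI1, with 76 windows over 3 starts, is in a class of genes where 84.1% had an IP-side window, counting genes with a window number within 20% of its own. The share was 80.2% for genes with as many windows as MYC (47), 70.6% for MYCN (35), 66.1% for MYB (31), 59.7% for MAX (26) and 58.4% for MYCL1 (23). MYBL2, with 14 windows, is in a class where 42.9% had one.

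**Figure D1:**
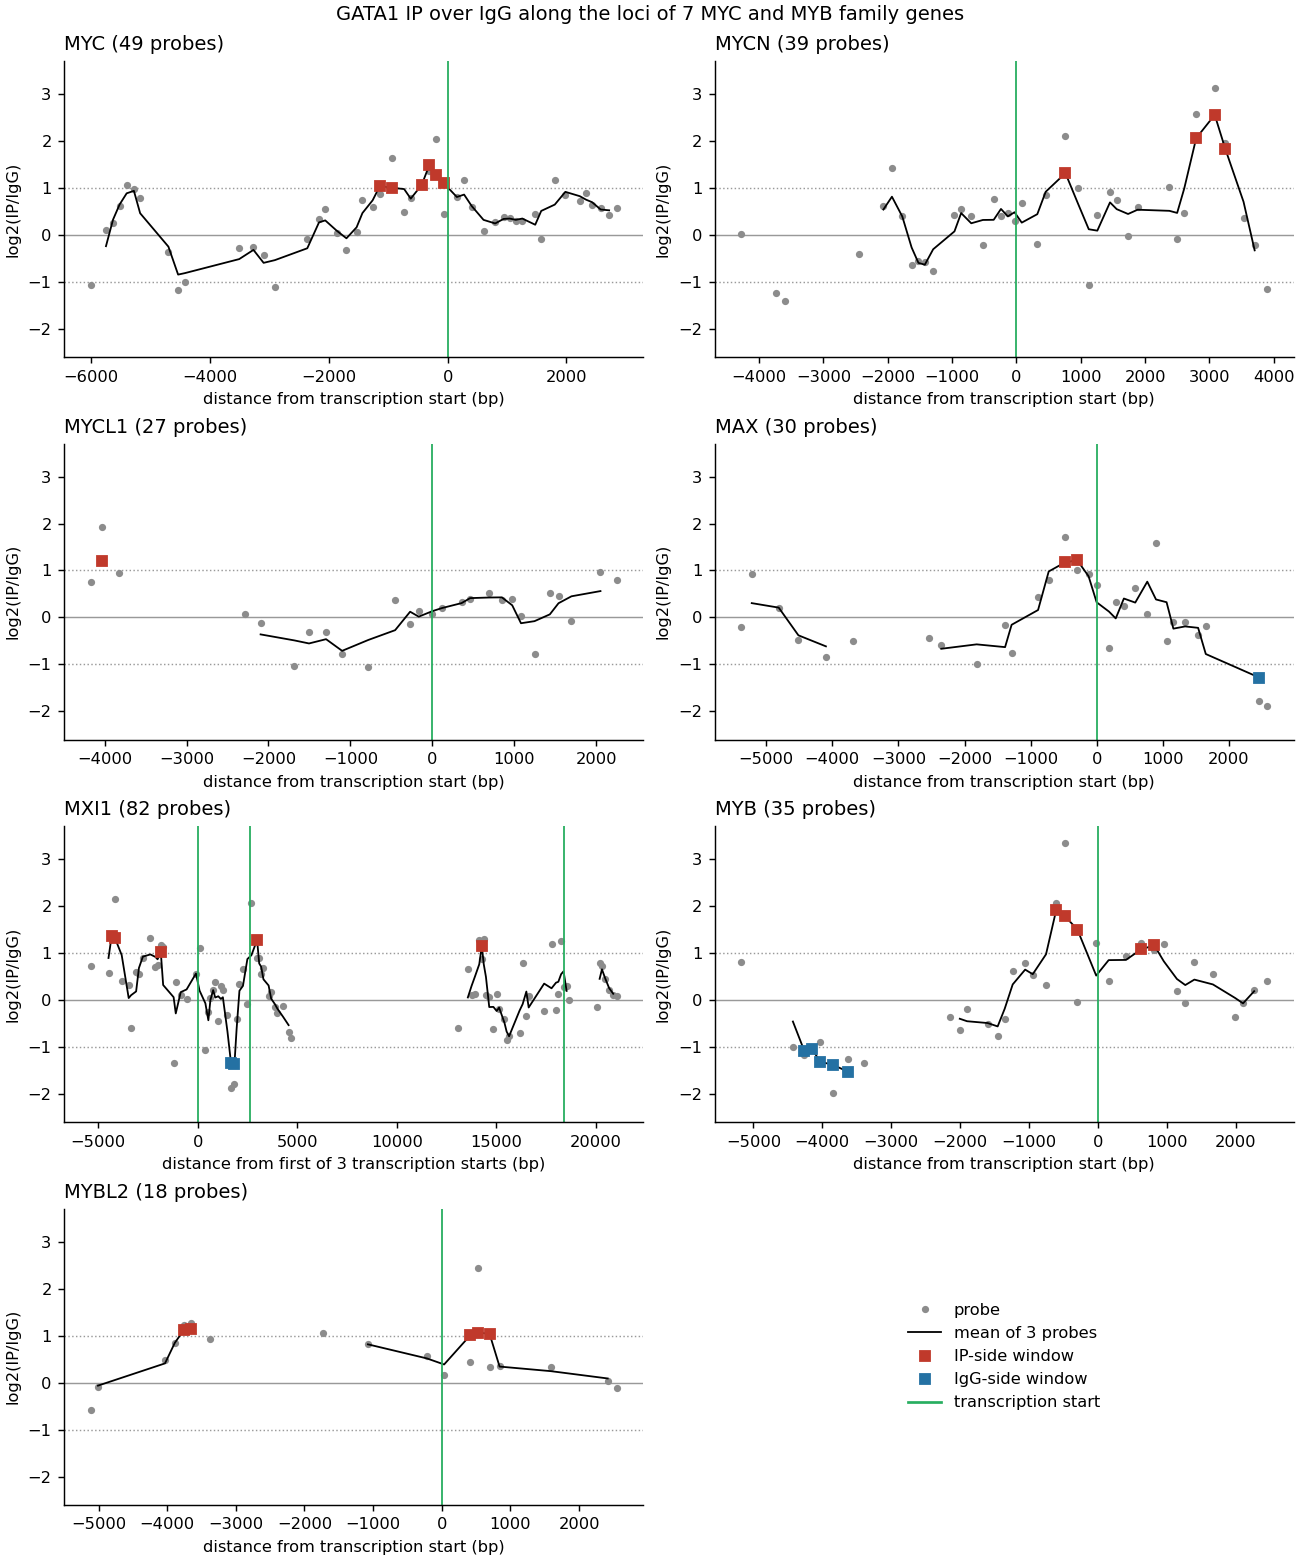
log2(IP/IgG) of each probe (grey) and of each window of 3 probes (line) against distance from the transcription start in bp, 1 panel per gene, with IP-side windows in red, IgG-side windows in blue and starts in green. MYCN peaks inside the gene at 2.56, MYC is raised around its start, and MYB has 5 windows on each side.

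In order of the highest window, with the SD of its 3 probes, the genes were MYCN at 2.56 ± 0.59, MYB at 1.91 ± 1.52, MYC at 1.48 ± 0.51, MXI1 at 1.37 ± 0.79, MAX at 1.22 ± 0.43, MYCL1 at 1.21 ± 0.63 and MYBL2 at 1.14 ± 0.18. The SD is the spread between 3 neighboring probes on 1 array, not between samples. Each gene differed from the next in this order by less than the larger of their SDs. MYCN exceeded MYC by more than the SD of either. This also held with loess, the series table, both other filters and the distance trend subtracted. It did not hold with normexp background correction (1.71 ± 0.30 against 1.52 ± 0.34) or windows of 5 probes (1.70 ± 1.24 against 1.17 ± 0.60). Nor did it with the median of 3 probes (2.58 ± 1.41 against 1.37 ± 0.51).

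MYCN held the highest window of the family. The window lay inside the gene, centered at 3082 bp (chr2:16034052-16034559 as the files give it), with a mean of 2.56, or 5.88-fold toward the IP. Its probes read 2.58, 3.13 and 1.96, with IP signals of 2302, 1296 and 1495 against IgG signals of 387, 148 and 385. All 3 probes were high, and the IgG signals were lower than the array's median of 920. Of all 415409 windows, 603 (0.145%) were as high, and the gene stood at percentile 97.6 among genes of its array.

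The signal fell off on both sides of this point. The probes next to the window read 0.47 at 2608 bp and 0.37 at 3530 bp, and the last probe of the locus, at 3899 bp, read -1.15. A second IP-side window, centered at 761 bp, had a mean of 1.32, from probes at 0.84, 2.10 and 1.00. Around the MYCN start itself, the 7 probes within 500 bp read between -0.19 and 0.84 with a median of 0.47, and none reached 1. Upstream of the start MYCN averaged 0.00 ± 0.73 (SD over 19 probes), and inside the gene 0.71 ± 1.09 (20 probes).

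MYC was raised just upstream of its start. Its 6 IP-side windows were in 2 groups, centered at -1141 and -942 bp and at -436 to -65 bp, and the windows between them had means of 0.98 and 0.77. Together they held 10 probes from -1262 to 155 bp (chr8:128816207-128817679), of which 4 were at 1 or more. Its highest window, centered at -310 bp, had a mean of 1.48, or 2.79-fold, from probes at 1.04, 1.37 and 2.04. The IP signals of these probes were 12389, 4517 and 4590 against 6050, 1753 and 1119 in the IgG, so both pull-downs gave bright spots there. All 7 MYC probes within 500 bp of the start were above 0, between 0.45 and 2.04, with a median of 1.04.

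Away from its start, the MYC locus was lower. The 17 probes beyond 2000 bp upstream averaged -0.06 ± 0.74, and 4 of them were at -1 or less. Inside the gene the 19 probes averaged 0.55 ± 0.33. The mean of all 49 probes, 0.39 ± 0.67, was at percentile 89.5 among genes of chIP1, a higher rank than its highest window (percentile 73.0).

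MYCL1 had the lowest IP-side count of the family. Its single IP-side window, at -4029 bp (chr1:40040584-40040981), had a mean of 1.21 from probes at 0.95, 1.92 and 0.74, so 1 of its 3 probes reached 1. Near the start there was little difference between the pull-downs, with 7 probes between -0.14 and 0.38 and a median of 0.21. From 2000 to 500 bp upstream, its 5 probes averaged -0.70 ± 0.37. The window at -4029 bp fell below 1 with the median of its 3 probes (0.95) or normexp background correction (0.92). Too few probes lie there for a window of 5, and the highest MYCL1 window of that size, centered at 1698 bp inside the gene, was 0.53.

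**Figure D2:**
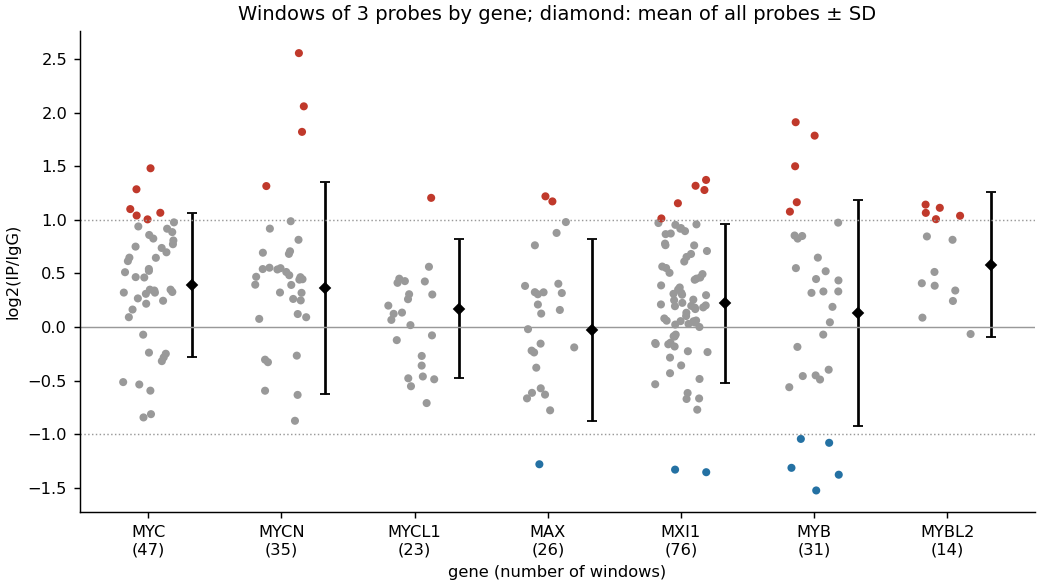
Every window of 3 probes (points, log2(IP/IgG)) by gene, red at 1 or more and blue at -1 or less, with the mean of all probes of the gene ± SD as a diamond. The highest windows run from 1.14 in MYBL2 to 2.56 in MYCN, and only MAX, MXI1 and MYB have blue points.

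MAX, the common partner of the MYC proteins, had 2 overlapping IP-side windows just upstream of its start. The higher one, centered at -296 bp (chr14:64639082-64639490), had a mean of 1.22, from probes at 0.93, 1.02 and 1.71. The other end of the locus leaned to the IgG. The probes at 2461 and 2579 bp inside the gene read -1.77 and -1.88, with IgG signals of 2004 and 1609 against 588 and 440 in the IP, and the window there had a mean of -1.28. Over all 30 probes MAX averaged -0.03 ± 0.85, the lowest mean of the 7 genes and at percentile 44.9. With the trend over distance to the start subtracted, the highest MAX window was 0.99 and no longer on the IP side.

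MXI1, the MAX-binding repressor, was read at 3 annotated starts, the second 2626 bp and the third 18399 bp downstream of the first. The highest window lay at -4317 bp from the first start (chr10:111952845-111953228), with a mean of 1.37 from probes at 0.57, 1.40 and 2.15. Another window before the first start, at -1851 bp, reached 1.01. Just inside the second start, a window centered at 359 bp had a mean of 1.28, from probes at 2.06, 0.89 and 0.89, while the windows over the start itself had means of 0.87 and 0.95. The third start had 1 IP-side window at -4129 bp, with a mean of 1.15 and even probes, which lay between 0.88 and 1.30.

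Of the 3 MXI1 starts, the second also had the lowest readings. The probes at -954 and -777 bp from it read -1.88 and -1.79, with IgG signals of 3055 and 2140 against 836 and 622 in the IP, and the lowest window there had a mean of -1.36. The lowest and the highest window of this start were centered at -777 and 359 bp, with 5 other windows between them. Each probe was given to 1 start. On that count, the probes within 500 bp had a median of 0.89 (5 probes) at the second start. The median was 0.20 (6 probes) at the third start, and the first had 1 probe at 0.56. The probes at -2532 and -2238 bp from the second start also lie within 500 bp of the first, just inside it. They read 1.12 and -1.07, so with them the readings at the first start run from -1.07 to 1.12. The ranges, -0.09 to 2.06 at the second start and -0.21 to 1.25 at the third, overlapped. With normexp background correction the window at -4317 bp from the first start fell from 1.37 to 0.50, and the highest MXI1 window was then that at -4129 bp from the third start, at 1.00 and just under the threshold.

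MYB had equal numbers of windows on each side, 5 and 5 of 31. The IP-side windows were in 2 groups on either side of the start, centered at -606 to -298 bp and at 625 to 818 bp (chr6:135543370-135545123 in all), and the windows between them had means from 0.52 to 0.85. The top window, centered at -606 bp, had a mean of 1.91, or 3.76-fold, from probes at 0.32, 2.06 and 3.34. These probes disagreed, and the higher pair were dim, with IP signals of 257 and 480 and IgG signals of 61.6 and 47.3. For comparison, 10% of the chIP1 probes had an IgG signal below 209. The next probe, at -298 bp, read -0.05.

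The downstream group of MYB windows rested on brighter spots. The probes at 625, 818 and 956 bp read 1.22, 1.07 and 1.20, with IP signals of 2688, 3060 and 1983 against IgG signals of 1156, 1455 and 866. They formed the single MYB window with all 3 probes at 1 or more. With normexp background correction the window at -606 bp fell from 1.91 to 0.49, and the highest MYB window was then the downstream one at 818 bp, which changed from 1.16 to 1.12.

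The IgG-side run of MYB lay from -4427 to -3396 bp (chr6:135539689-135540776). Of its 7 probes, 6 were at -1 or less, and the lowest window had a mean of -1.53, from probes at -1.98, -1.25 and -1.34. The IgG signals in that window were 2129, 913 and 1661 against 538, 382 and 655 in the IP, so this run was not made of dim spots. It stayed at -1 or less under all 9 alternatives of value, filter and window that were tried, with values from -1.98 to -1.07. MYB had the widest spread of the family, with an SD of 1.06 over its 35 probes and a mean of 0.13.

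MYBL2 had the fewest probes, 18, and the highest share of IP-side windows, 5 of 14 (35.7%). Its highest window, at -3647 bp (chr20:41725333-41725771), had a mean of 1.14 from even probes at 1.22, 1.28 and 0.93 and IP signals of 3657, 4160 and 1359 against 1567, 1711 and 708. A second run from 34 to 842 bp held 3 of the 5 IP-side windows and reached 1.06 at 524 bp, where 1 probe read 2.43 and its neighbors 0.43 and 0.34. That probe was in all 3 windows and was the only one of the run at 1 or more, so the share rests in good part on 1 probe. MYBL2 had 15 of 18 probes above 0, and its lowest window was -0.07. Its probe mean of 0.58 ± 0.67 was the highest of the family and at percentile 96.8 among genes of chIP2, whereas its highest window was at percentile 56.2.

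**Figure D3:**
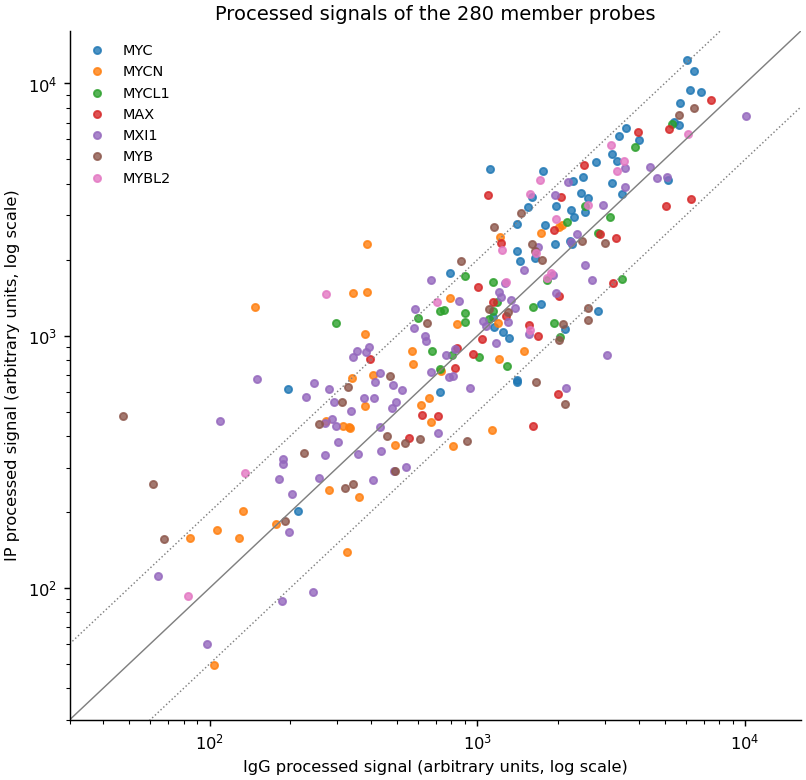
Processed IP signal against processed IgG signal of each of the 280 member probes in arbitrary units, both axes on a log scale, colored by gene. The solid line is equal signal and the dotted lines are 2-fold; the 2 MYB points at the far left, above the upper line, have IgG signals of 61.6 and 47.3.

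Brightness moved with the calls over all genes, and the calls among the members did not follow the same order. When all windows were divided into 4 groups by intensity, the IP-side share was 11.3% in the dimmest and 6.19% in the brightest group, and the IgG-side share was 19.9% and 1.83%. Of the member windows, 90 of 252 were in the brightest group, and 11 of these (12.2%) were on the IP side. In the dimmest group were 47 member windows, with 5 (10.6%) called IP side and 0 called IgG side. The part of intensity in the lean of the members was not tested.

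Position also moved with the ratio. Each probe was counted at 1 start. Within 500 bp of it, the 48 member probes averaged 0.63 ± 0.68, and 10 (20.8%) were at 1 or more while 0 were at -1 or less. Over all genes the probes in this range averaged 0.25 ± 0.83, with 14.8% and 6.52% past the thresholds. The 48 leave out the MXI1 probes at -2532 and -2238 bp from the second start, which also lie within 500 bp of the first. These read 1.12 and -1.07, so 1 reading near a start was at -1 or less. By gene, the mean within 500 bp was highest in MYB (1.17 ± 1.31, 5 probes) and MYC (1.07 ± 0.53, 7 probes) and lowest in MYCL1 (0.19 ± 0.19, 7 probes). The MYB mean included the dim probe at 3.34, and its median was 0.93.

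Beyond 2000 bp upstream, the 85 member probes averaged 0.05 ± 0.85, against -0.18 ± 1.05 for all probes there. The 85 include the MXI1 probes at -2532 and -2238 bp from the second start, which lie inside the first. MYB was lowest in this range, at -0.89 ± 0.74 over 10 probes, and MYCL1 was highest, at 0.72 ± 0.81 over 5 probes. Between 500 and 2000 bp inside the gene, the 57 member probes averaged 0.37 ± 0.64, against -0.01 ± 0.93 for all probes, and each of the 7 genes had a mean above 0. Neighboring probes were correlated to a similar degree among the members (r = 0.52 over 266 pairs) and over all probes (r = 0.52 over 442639 pairs). This is a description, since neighbors share DNA fragments.

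**Figure D4:**
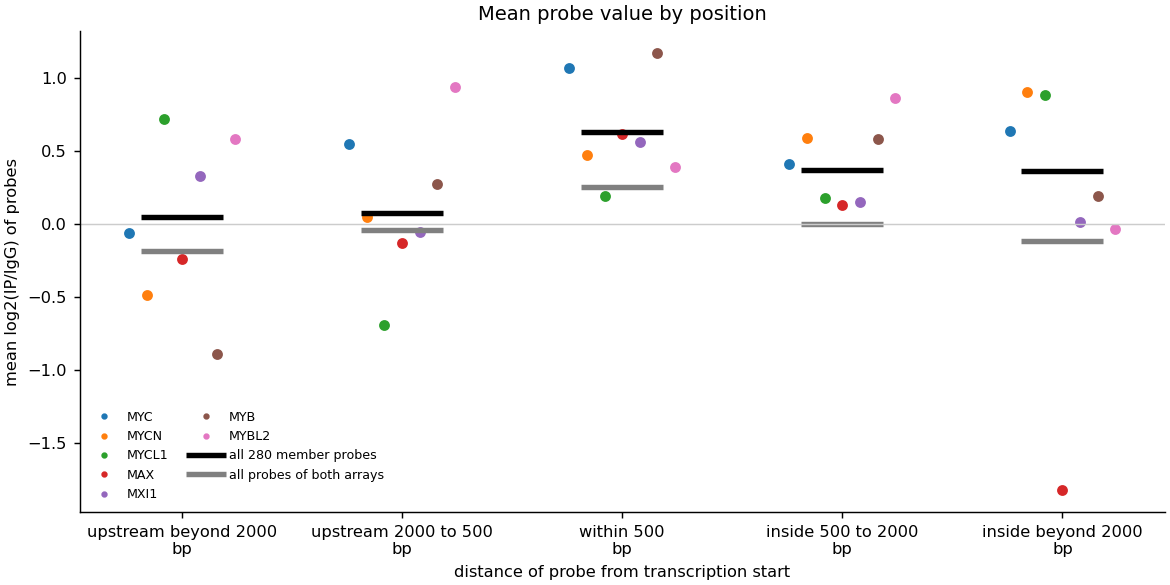
Mean log2(IP/IgG) of the probes of each gene (colored points) by distance from the transcription start, with the mean of all member probes (black bar) and of all probes of both arrays (grey bar). All 7 genes are above 0 within 500 bp, and they spread most beyond 2000 bp inside the gene, where MAX rests on 2 probes.

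Of 62 other genes of this network, listed by role, 58 were found on the arrays. An IP-side window was present in 36 (62.1%), near the 57.1% of all genes, and an IgG-side window in 21 (36.2%), below the 52.9% of all genes. Their median highest window was 1.18. The partners of MAX had an IP-side window in 3 of 7 genes, cofactors and regulators of MYC in 10 of 14 and cofactors of MYB in 6 of 11.

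Textbook targets of MYC had an IP-side window in 13 of 15 genes, against 57.1% of all genes. Their median highest window was 1.62, against 1.09 for all genes. All the network lists were chosen with earlier results of these data known. Their shares were not matched for the number of windows, so these contrasts are descriptions only. Targets of MYB had an IP-side window in 5 of 12, counting MYC itself. The highest were ID2, an inhibitor of helix-loop-helix factors (2.69), CCND2, a D-type cyclin (2.50), and NME1, a nucleoside diphosphate kinase (2.03), all from the MYC target list. The lowest were HUWE1, a ubiquitin ligase (0.04 over 7 windows), ADA, adenosine deaminase (0.24 over 8 windows), and CDK4, the partner kinase of D-type cyclins (0.52 over 26 windows). Thus ID2 was the single gene of the list with a highest window above that of MYCN.

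**Figure D5:**
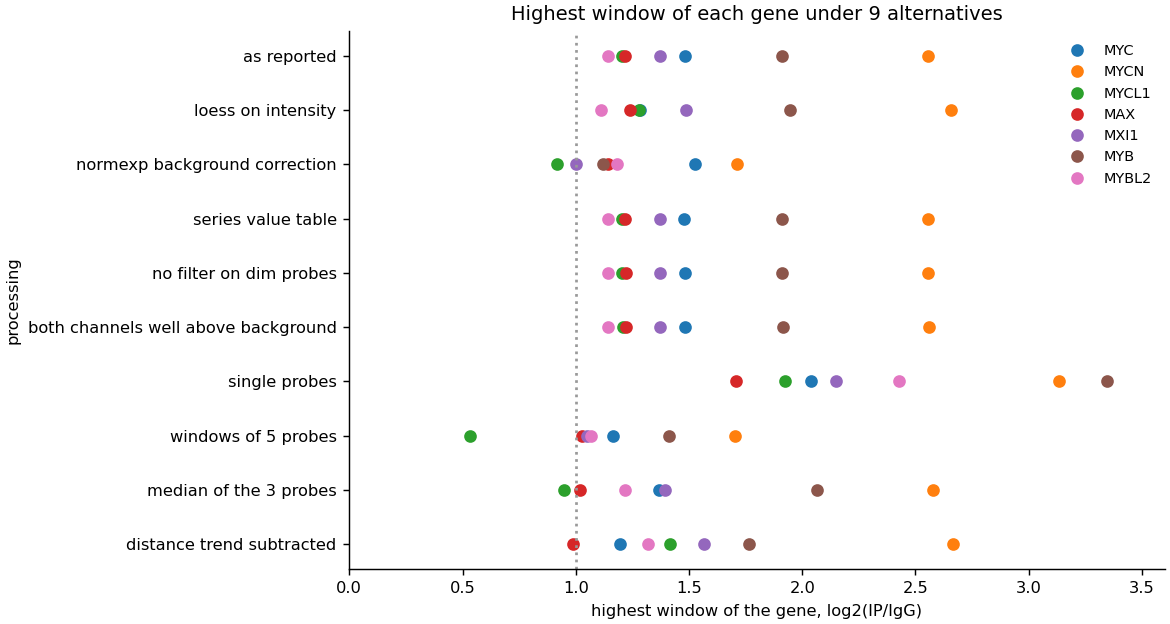
Highest window of each gene (log2(IP/IgG), colored points) as reported and under 9 alternatives of processing, with the 2-fold line dotted. MYCN is highest in all settings except single probes, where MYB is at 3.34, and MYCL1 with 5 probes is the lowest point at 0.53.

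MYC, MYCN, MYB and MYBL2 had a highest window of at least 1 under all 9 alternatives of value, filter and window, though not always at the same place. MYCN ranged from 1.70 with windows of 5 probes to 3.13 with single probes, and MYC from 1.17 to 2.04. MYCL1 stayed at 1 or more under 6 of the 9, and MAX and MXI1 under 8 each. Over all genes, the share with an IP-side window itself moved from 33.1% with normexp to 86.1% with single probes.

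The precision of these values is limited by the single hybridization. The median raw signal was 543 and 544 in the IP channel of the arrays against 342 and 340 for negative control spots, and 412 and 440 against 303 in the IgG channel. Over 2392 uniform control probes spotted once on each array, the SD of the difference between arrays was 0.17. This covers spotting, hybridization and scanning but not the immunoprecipitation. The dimmest and brightest control probes were left out, so the value does not cover spots of such intensity.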

How the data were processed

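ChIP-on-chip was performed in Meg-01 cells on a set of 2 promoter arrays, without replicates. The authors deposited scanner files with intensity values per spot (Agilent Feature Extraction 9.5.3.1). Per the file headers, the processed intensity had a spatial surface subtracted and was detrended and dye-normalized by a linear factor. The deposited log10 ratio is IP over IgG, and the deposited series table holds the same ratio. The deposited p-value per spot comes from the scanner software's error model within 1 array and was not used. The lowess normalization and peak calling of the study were not repeated.

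Here, log2 of IP over IgG was centered on each array's median. Probes flagged as non-uniform in either channel, or well above background in neither, were dropped, but saturated ones stayed. All 280 member probes passed. Windows held 3 adjacent probes, and the threshold was 2-fold. Intensity groups, positions and neighbor pairs used the same probes. Alternatives were loess and normexp (offset 50, limma 3.58.1, R 4.3.3), other filters, window sizes, thresholds and a distance trend in 500 bp steps. Python 3.11.15, numpy 2.4.6 and pandas 2.3.3 were used, and the window code was tested on simulated data. Genes named are the 8 members, genes sharing probes with them (0) and the 3 highest and 3 lowest of the network list. Members and lists were chosen with earlier results of these data known. RefSeq promoters (GRCh38.p14) were matched by gene ID, and starts of MAX and MYCL1 were searched but are not printed. Those on chromosome 8, with MYC and MYBL1, were not searched. Array coordinates are as deposited, and their genome build is not given in the sources used here.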

Additional observations from a re-analysis of the deposited data

How the results depend on the processing

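No paired analysis was possible because the arrays carried separate probes and groups could not be tested. Of the 63 highest windows recomputed (7 genes, 9 alternatives), 5 fell below 2-fold: 3 of MYCL1, and 1 each of MAX and MXI1. With normexp, IP-side windows of the members fell from 28 to 14, their IgG-side windows from 8 to 3, and network genes with an IgG-side window from 21 to 10, while the shares of all windows fell to 3.25% and 2.50% and that of all genes with an IgG-side window to 23.9%. Single probes gave 6 members with a value at or below -1 in place of 3, 22 IgG-side values, medians of 2.15 for the highest and -1.42 for the lowest value, 56 network genes with an IP-side value and 42 with an IgG-side value, where 86.1% and 81.0% of all genes had one. Windows of 5 probes left 1 member (MYB) with an IgG-side window, 4 such windows, and 13 network genes on that side, against 34.3% of all genes. The median of 3 probes gave 5 members with an IgG-side window, and 12 such windows, against 55.3% of all genes and 11.0% of all windows. At 1.5-fold, 6 members, 23 member windows and 39 network genes were on the IgG side, against 78.4% of all genes and 21.0% of all windows, and 73 member windows and 54 network genes were on the IP side, against 19.3% of all windows and 85.0% of all genes. At 3-fold, 2 members (MYCN and MYB), 5 member windows and 12 network genes were on the IP side, with 0 members, 0 member windows and 7 network genes toward the IgG, while 20.6% and 22.3% of all genes were on either side. Loess, the series table and both other filters moved no count by more than 1.5 times, and the cause of the other shifts was not tested. No value past 2-fold changed sign, but 2 values near 0 did: the lowest MYBL2 window went from -0.07 to 0.10 with normexp, 0.19 with 5 probes and 0.14 with the trend subtracted, and the MAX probe mean went from -0.03 to 0.06 with normexp. Over all genes, the dimmest group of windows had the largest share on both sides, 11.3% toward the IP and 19.9% toward the IgG. Among the member windows of that group the shares were 10.6% and 0%. The part of signal over background in these values was not tested.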
